A study of Mus musculus with 6 samples.

Results

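The miR-192 and miR-194 cluster, here the rows mmu-miR-192-5p and mmu-miR-194-5p with their opposite arms and mmu-miR-215, was sequenced from the small RNA of mouse epicardial cells, a cultured line from the outer layer of the heart, in which Hdac3, a histone deacetylase gene, had been targeted. The members were chosen by name, as every row of the deposited count table for miR-192, miR-194, miR-194-1, miR-194-2 or miR-215, with either arm, which gave 7 of the 1028 mature microRNAs. The KO group came from cells given a lentivirus that carries an Hdac3 guide RNA for CRISPR/Cas9 knockout (3 libraries). The EV group came from cells given an empty-vector lentivirus (3 libraries), so both groups were transduced. The labels do not say whether the KO cells were 1 clone or a mixed population, nor whether the replicates were separate cultures. p-values therefore measure only the spread between these libraries, which may be technical. Small-RNA libraries hold no Hdac3 mRNA and no epicardial mRNA markers, so neither the knockout nor the epicardial identity was checked.

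MicroRNAs are cut from RNA hairpins, and the bases at positions 2 to 8 of the mature strand, the seed, choose most of the mRNAs that a microRNA represses. miR-192, miR-194 and miR-215 are known as microRNAs of gut, liver and kidney epithelium. In human cells their genes are known as targets of p53, the tumour suppressor that halts the cell cycle. In mouse kidney mesangial cells, TGF-beta, a growth factor that promotes matrix deposition and epithelial-mesenchymal transition, is known to raise miR-192, which represses the transcription factors Zeb1 and Zeb2.

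The mature sequences that decide how reads can be assigned are shown first, 5′ to 3′, with the seed in capitals (RefSeq, build GRCm38.p6). All 7 rows matched a RefSeq entry.
miR-192-5p: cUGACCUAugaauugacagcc
miR-215-5p: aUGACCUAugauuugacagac
miR-194-5p: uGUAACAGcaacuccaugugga
miR-194-2-3p: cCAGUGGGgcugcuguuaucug
miR-194-1-3p: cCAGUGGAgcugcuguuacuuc

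miR-192-5p and miR-215-5p share the seed UGACCUA and differ at 3 of 21 bases, C1A, A12U and C20A (miR-192-5p base, position from the 5′ end, miR-215-5p base). None of these 3 lies in the seed. No other mature mouse microRNA in the RefSeq table has that seed, and miR-194-5p alone has the seed GUAACAG. miR-194-5p is made with the same sequence by 2 hairpins, whose opposite arms differ at 4 bases, G8A, U19C, C20U and G22C (miR-194-2-3p base, position, miR-194-1-3p base). The arms on the 3′ side can therefore tell the 2 hairpins apart where the arms on the 5′ side cannot.

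The 4 hairpins stand as 2 pairs, one on chromosome 19 and one on chromosome 1, and are printed with their mature arms in capitals.
Mir194-2: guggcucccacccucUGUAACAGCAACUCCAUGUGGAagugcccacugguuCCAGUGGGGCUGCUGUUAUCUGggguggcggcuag
Mir192: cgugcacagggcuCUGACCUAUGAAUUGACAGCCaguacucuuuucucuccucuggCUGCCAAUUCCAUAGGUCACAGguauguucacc
Mir194-1: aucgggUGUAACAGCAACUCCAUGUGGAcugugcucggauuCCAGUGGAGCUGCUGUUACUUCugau
Mir215: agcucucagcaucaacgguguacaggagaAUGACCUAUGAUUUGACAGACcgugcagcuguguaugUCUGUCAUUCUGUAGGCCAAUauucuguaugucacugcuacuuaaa

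Mir194-2 (chr19:6264643-6264728) and Mir192 (chr19:6264844-6264932) lie on the plus strand with 115 bases between them. They overlap no annotated host gene in GENCODE M21. The nearest genes are Atg2a, which ends 2307 bases upstream of Mir194-2, and the lincRNA Gm14963 on the opposite strand, 3862 bases beyond Mir192. Mir194-1 (chr1:185313319-185313385) and Mir215 (chr1:185313581-185313692) also lie on the plus strand, 195 bases apart, inside Iars2, a mitochondrial isoleucyl-tRNA synthetase gene on the minus strand. On their own strand they lie in 2010103J01Rik, a noncoding antisense gene, Mir194-1 in an intron and Mir215 in an exon.

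The reads of the cluster came almost wholly from 5′ arms. miR-192-5p took 24526 reads over the 6 libraries, miR-194-5p 2005, miR-215-5p 80 and miR-194-2-3p 52. miR-192-3p had 2 reads, and miR-194-1-3p and miR-215-3p had 1 each. miR-192-5p alone made up 90.9% to 92.4% of the cluster's reads in KO libraries and 92.1% to 92.5% in EV libraries. Library totals were 12720548 to 13412774 counts in KO and 11824881 to 12806873 in EV, and the 7 rows together took 0.0339% to 0.0367% of them in KO and 0.0302% to 0.0413% in EV.

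**Figure D1:**
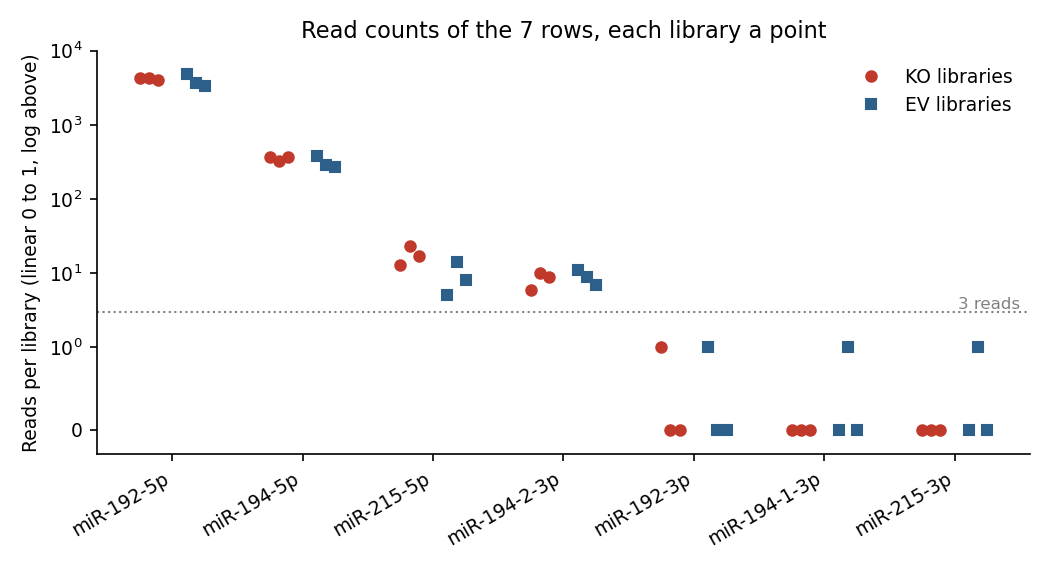
Reads per library of the 7 miR-192, miR-194 and miR-215 rows, on an axis that is linear from 0 to 1 and logarithmic above, with KO libraries as red circles and EV libraries as blue squares. miR-192-5p lies between 3392 and 4893 reads and miR-194-5p between 270 and 379, miR-215-5p and miR-194-2-3p have between 5 and 23 reads per library, and the other 3 rows have at most 1.

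Among rows that can come from only 1 of the 2 hairpin pairs, nearly all reads belonged to the pair on chromosome 19. The chromosome 19 rows (miR-192-5p, miR-192-3p and miR-194-2-3p) held 24580 reads and the chromosome 1 rows (miR-215-5p, miR-215-3p and miR-194-1-3p) 82. The chromosome 1 share was 0.299%, 0.529% and 0.424% in KO 1, KO 2 and KO 3, and 0.102%, 0.438% and 0.235% in EV 1, EV 2 and EV 3. Exact (Clopper-Pearson) 95% intervals ran from 0.160% to 0.793% over the KO libraries and from 0.0331% to 0.711% over the EV libraries, so the groups overlapped. Of the 53 reads on the 3′ arms of miR-194, 1 was miR-194-1-3p, a share of 1.89% with an exact 95% interval of 0.0478% to 10.1%. That read was in EV 2, which also held the only miR-215-3p read. Such intervals cover counting error only, because PCR copies were counted as reads. Adaptor ligation favours some sequences, so a share between different microRNAs is a share of reads and not of molecules. The labels leave unstated how reads that match several hairpins were counted, and miR-194-5p reads could not be assigned to either hairpin.

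The 3 rows with enough reads for a test were miR-192-5p, miR-194-5p and miR-215-5p. Levels are given as CPM. This is the count per 1000000 reads after each library total is multiplied by a TMM factor, which evens out differences in composition. Neither miR-192-5p nor miR-194-5p was called between KO and EV. Called means an adjusted p under 0.05 in edgeR's quasi-likelihood test, with Benjamini-Hochberg adjustment over 460 tested microRNAs. Over all tested microRNAs 7.61% were called, that is 35, 23 higher and 12 lower in KO. With the library total alone as the scaling, 5 were called, 1 higher and 4 lower, and with each library left out in turn between 15 and 59. Without EV 1, EV 2 and EV 3 there were 23, 16 and 59, and without KO 1, KO 2 and KO 3 there were 16, 15 and 19. At an unadjusted p under 0.05, edgeR had miR-192-5p, limma-voom had miR-194-5p and DESeq2 had neither. For miR-192-5p the unadjusted p was 0.0360 by edgeR, 0.0609 by limma-voom and 0.0642 by DESeq2. For miR-194-5p it was 0.0694 by edgeR, 0.0416 by limma-voom and 0.0658 by DESeq2. Of all 460 tested microRNAs, 106 (23.0%) were under 0.05 by edgeR, 111 by limma-voom and 99 by DESeq2. DESeq2 and limma-voom called neither miR-192-5p nor miR-194-5p after adjustment. miR-215-5p is given below as a description.

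miR-192-5p, the most abundant member, had 350.4 CPM in KO 1, 344 CPM in KO 2 and 326 CPM in KO 3, against 312 CPM in EV 1, 296 CPM in EV 2 and 303 CPM in EV 3. All 3 KO libraries lay above all 3 EV libraries. The means were 340.1 ± 12.5 CPM in KO and 303 ± 7.92 CPM in EV (SD, n = 3 each), a log2 change of 0.16 (SE 0.07, 95% interval 0.01 to 0.32). This is a 1.12-fold difference with an edgeR unadjusted p of 0.0360 and an adjusted p of 0.187. Groups that do not overlap were found for 29.1% of all tested microRNAs, and for 15.2% with KO higher, a background against which such a separation is common. In cultures, more RNA per cell and more cells of one kind cannot be told apart from such levels.

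miR-194-5p, made from the hairpin beside Mir192 and from Mir194-1, had 30.2 CPM in KO 1, 25.8 CPM in KO 2 and 30.5 CPM in KO 3, against 24.1 CPM in EV 1, 23.5 CPM in EV 2 and 24.1 CPM in EV 3. The groups again did not overlap, with KO 2 nearest to the EV libraries. The means were 28.8 ± 2.66 CPM in KO and 23.9 ± 0.353 CPM in EV (SD, n = 3 each), a log2 change of 0.27 (SE 0.13, 95% interval -0.03 to 0.56, edgeR adjusted p = 0.254). The interval allows a difference between 0.982-fold and 1.48-fold. For miR-192-5p it allows one between 1.01-fold and 1.25-fold, before adjustment for the number of microRNAs tested.

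miR-215-5p, the same-seed relative on chromosome 1, had 13, 23 and 17 reads in KO 1, KO 2 and KO 3, against 5, 14 and 8 reads in EV 1, EV 2 and EV 3. On the CPM scale these were 1.05, 1.83 and 1.39 in KO and 0.318, 1.14 and 0.714 in EV, with EV 2 above KO 1. The log2 change was 1.02 (SE 0.48), from means of 1.43 ± 0.391 CPM in KO and 0.725 ± 0.412 CPM in EV (SD, n = 3 each). All 3 KO libraries but only 1 EV library reached the read level of the low-count filter, so the row entered the test through the group in which it was higher, and its fold is given as a description. The fold depended on single libraries, with a log2 change of 0.61 without EV 1 and 1.49 without EV 2.

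**Figure D2:**
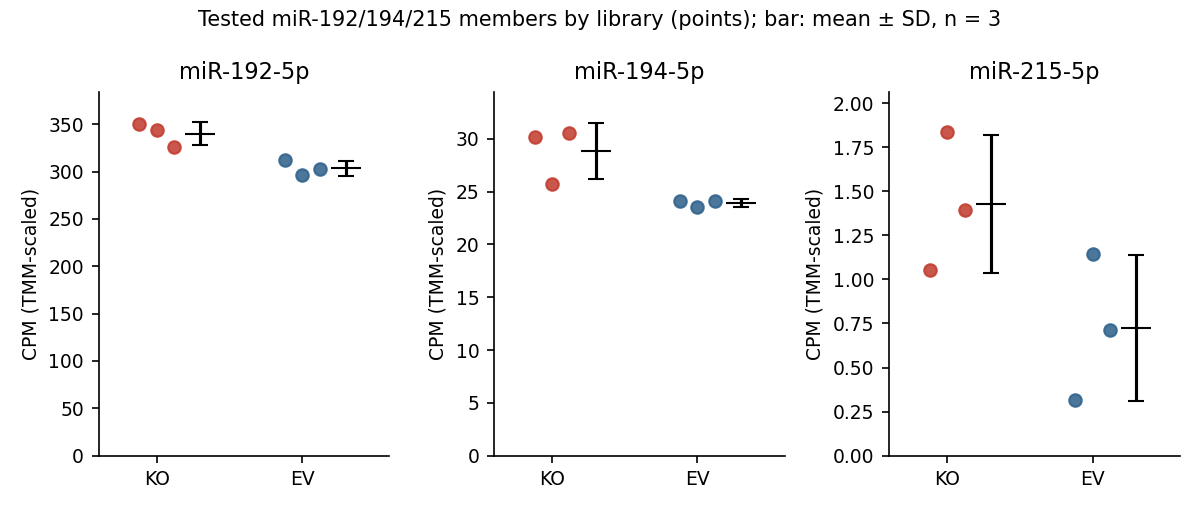
Level in CPM (total times TMM factor, axes from 0) of the 3 tested members in each library, KO to the left of EV, with points for libraries and a bar for the mean ± SD (n = 3). For miR-192-5p and miR-194-5p the KO points lie above the EV points, and for miR-215-5p the groups overlap.

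The 4 rows under the filter had too few reads to show a difference at this depth. miR-194-2-3p, the opposite arm of the chromosome 19 miR-194 hairpin, had 6, 10 and 9 reads in KO 1, KO 2 and KO 3, against 11, 9 and 7 reads in EV 1, EV 2 and EV 3, which overlap. miR-192-3p had 1 read in KO 1, 1 in EV 1 and 0 in the other libraries. A count of 0 allows up to 3 reads, which is 0.239 to 0.246 CPM in KO libraries and 0.191 to 0.268 CPM in EV libraries.

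Among the tested microRNAs the members lay far apart in abundance. miR-192-5p ranked 72 of 460 by mean CPM, miR-194-5p 186 and miR-215-5p 433. Next above miR-192-5p were miR-872-5p and miR-450b-5p and next below it miR-16-5p and miR-140-5p. Next above miR-194-5p were miR-369-5p and miR-574-3p and next below it miR-376c-3p and miR-18a-5p. The ranges over the 6 libraries overlapped for each of these 8 neighbours and its member, so the order between them is not settled, and reads per microRNA also depend on ligation. The SE of the log2 change was 0.07 for miR-192-5p against a median of 0.09 among its 20 neighbours in abundance, and 0.13 for miR-194-5p against 0.15. Of the 20 neighbours of each, 2 were called around miR-192-5p and 1 around miR-194-5p, where 7.61% of all tested microRNAs were called. The smallest log2 change called among all tested microRNAs was 0.29 in size, above the estimates for both main members.

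**Figure D3:**
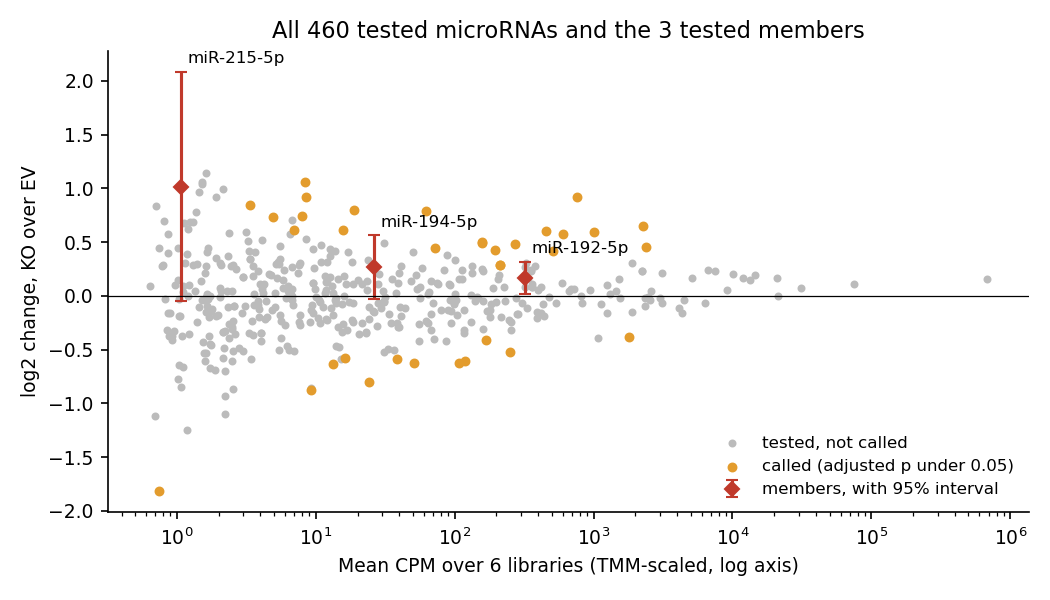
Log2 change of KO over EV against mean CPM (log axis) for the 460 tested microRNAs, with called ones in orange and the 3 members as red diamonds with 95% intervals. The members lie above 0 among microRNAs of like abundance that are mostly uncalled, and the interval narrows from miR-215-5p to miR-192-5p.

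The value of the main members rested on how libraries were scaled. By the library total alone miR-192-5p stood at 322, 339 and 308 counts per 1000000 in KO 1, KO 2 and KO 3, against 382, 307 and 278 in EV 1, EV 2 and EV 3. On this scale EV 1 was the highest of all 6 libraries and the groups overlapped. The TMM factors were 0.920, 0.986 and 0.945 in KO 1, KO 2 and KO 3 and 1.23, 1.04 and 0.919 in EV 1, EV 2 and EV 3. With the library total alone the log2 change was 0.00 (SE 0.13) for miR-192-5p and 0.11 (SE 0.18) for miR-194-5p. That scaling also moved the median log2 change of all tested microRNAs to -0.16, from a median of -0.01 with TMM. Taken relative to the median, miR-192-5p was 0.16 higher with the library total alone and 0.17 higher with TMM. In the same way miR-194-5p was 0.27 higher with the library total alone and 0.28 higher with TMM.

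The ratio of the 2 main members needs no scaling between libraries. There were 8.61, 7.49 and 9.36 miR-194-5p reads per 100 miR-192-5p reads in KO 1, KO 2 and KO 3, against 7.75, 7.94 and 7.96 in EV 1, EV 2 and EV 3. KO 2 lay below and the other 2 KO libraries above all EV libraries. The mean was 8.49 ± 0.942 in KO and 7.88 ± 0.120 in EV (SD, n = 3 each), and the mean log2 ratio was 0.10 higher in KO (two-sided exact permutation test, p = 0.400, where 3 against 3 libraries cannot give less than 0.10). Without KO 2 the difference in log2 ratio was 0.19 and without KO 3 it was 0.03. The ratio of miR-194-2-3p to miR-194-5p was added after the data were seen, and differed by -0.31 on the log2 scale, KO minus EV (exact permutation test, p = 0.300, and 0.400 after Benjamini-Hochberg adjustment over the 2 ratios tested). The ratio of miR-215-5p to miR-192-5p was -8.32, -7.52 and -7.83 on the log2 scale in KO 1, KO 2 and KO 3, against -9.80, -7.97 and -8.64 in EV 1, EV 2 and EV 3. It is given as a description, with KO 1 below EV 2.

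**Figure D4:**
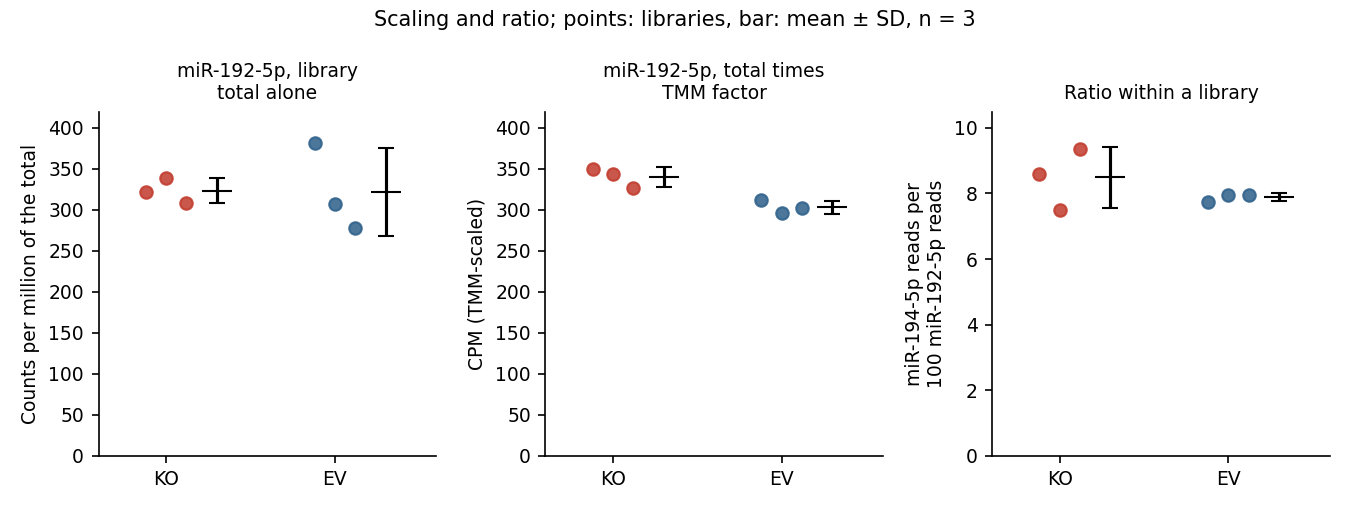
miR-192-5p in each library per 1000000 of the library total (left) and with TMM scaling (middle), and miR-194-5p reads per 100 miR-192-5p reads (right), with KO left of EV, points for libraries and bars for the mean ± SD (n = 3). EV 1 is the highest point by library total at 382. Of the scalings shown, the KO and EV points of miR-192-5p separate only with TMM.

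Across the 6 libraries, miR-192-5p was among the nearest microRNAs to miR-194-5p in pattern, and miR-194-5p was farther down the order for miR-192-5p. Likeness was measured as the root-mean-square difference of log2 CPM, each centred on its own mean over the 6 libraries. The microRNAs nearest to miR-192-5p were miR-125b-5p (0.0452), miR-125b-2-3p (0.0533), miR-25-3p (0.0542), miR-365-1-5p (0.0562) and miR-143-3p (0.0563). miR-194-5p came at place 54, with a difference of 0.107, against a median of 0.234 over all tested microRNAs. The nearest to miR-194-5p were miR-31-3p (0.0426), miR-16-5p (0.0547), miR-16-1-3p (0.0656), miR-669c-5p (0.0699) and miR-320-3p (0.0706), and miR-192-5p came at place 9, against a median of 0.260 over all tested microRNAs. None of these 10 was called in KO against EV, where 7.61% of all tested microRNAs were called. miR-215-5p was far from both, at 0.672 from miR-192-5p and 0.657 from miR-194-5p, with few reads behind each of its values. Counting error is larger for rows with fewer reads, so such distances are not independent of abundance.

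Other microRNAs known as linked to p53 divided by gene. Of 15 tested list members, 5 rose in KO, all of them arms of miR-34a, miR-34b or miR-34c, which p53 induces directly. The other 10 were not called (edgeR, adjusted over all tested microRNAs, of which 5.00% rose). Arms of the same hairpin are cut from the same RNA, so the 5 are not independent of each other. miR-34a-3p was under the filter. miR-34a-5p averaged 78.9 ± 2.67 CPM in KO and 45.6 ± 1.69 CPM in EV (SD, n = 3 each), or 0.79 higher on the log2 scale (SE 0.10, adjusted p = 0.00220 by edgeR). miR-34b-5p, miR-34b-3p, miR-34c-3p and miR-34c-5p rose by 0.92, 0.80, 0.61 and 0.65 on the log2 scale. Among those not called, miR-16-5p, which restrains cell-cycle genes, differed by 0.27 on the log2 scale (SE 0.08, adjusted p = 0.0731 by edgeR). The list's median log2 change was 0.22, against -0.01 for all tested microRNAs. miR-192-5p stood at 0.16 and miR-194-5p at 0.27, and a link of either to p53 was not tested. Only 2 of the list were called without EV 2 or without KO 1, and 0 with the library total alone.

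Of 20 tested microRNAs known as linked to TGF-beta, 1 rose and 3 fell, and 16 were not called (edgeR, where 2.61% of all tested microRNAs fell). In mouse mesangial cells miR-192 is known to act upstream of miR-200b, miR-200c, miR-216a and miR-217 through Zeb1 and Zeb2. miR-217-5p averaged 11.3 ± 1.23 CPM in KO and 5.45 ± 1.20 CPM in EV (SD, n = 3 each), or 1.05 higher on the log2 scale (SE 0.19, adjusted p = 0.00992 by edgeR). Its hairpin neighbour miR-216a-3p had 23, 24 and 24 reads in KO 1, KO 2 and KO 3, against 13, 11 and 14 reads in EV 1, EV 2 and EV 3, and was not called (adjusted p = 0.0785 by edgeR). miR-200b-3p averaged 17.7 ± 0.898 CPM in KO and 30.7 ± 2.25 CPM in EV, and miR-200a-3p 6.52 ± 0.323 CPM in KO and 12.03 ± 1.496 CPM in EV (SD, n = 3 each), both called as lower. miR-181b-5p also fell, by 0.41 on the log2 scale (SE 0.09). Of the 4 microRNAs downstream of miR-192 in mesangial cells, miR-217 was thus called as higher and miR-200b as lower, while miR-200c-3p, at -0.33 on the log2 scale (SE 0.39), was not called. The list's median was 0.14. The calls numbered 2 with the library total alone (0 higher and 2 lower in KO) and 9 without EV 3 and KO 2 (6 higher and 3 lower).

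Markers of other tissues in which the cluster is abundant were at different levels. The hepatocyte list, miR-122 and miR-802, had 3 rows in the table, of which 0 passed the filter, and summed to 0.638 to 3.41 CPM in KO libraries and 0.625 to 0.653 CPM in EV libraries. miR-122-5p, the liver's main microRNA, had 40 reads in KO 1 and between 5 and 10 in each of the others. For miR-192-5p, KO 1 was the highest library on the TMM scale and EV 1 by library total. Without KO 1 the log2 change of miR-192-5p was 0.14 (SE 0.08). A link between miR-122-5p and miR-192-5p was not tested. The epithelial list of 9 rows summed to 27.0 to 30.7 CPM in KO and 45.0 to 53.8 CPM in EV, lower in KO where miR-192-5p was not, and 2 of its 5 tested members, the miR-200a-3p and miR-200b-3p given above, were called as lower, against 2.61% of all tested microRNAs. miR-375-3p of that list, known from endocrine and gut cells, had at most 3 reads in a library. The mesenchymal list, with miR-21a, miR-143, miR-145a, miR-199a and miR-214, held 765742 to 838204 CPM in KO and 594164 to 842947 CPM in EV. Most of that sum was miR-21a-5p alone, with 676324 to 754475 CPM in KO and 513964 to 763066 CPM in EV.

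EV 3 and KO 2 stood apart from the other libraries in miR-451a, the microRNA of red blood cells. Its level was 62.7 CPM in KO 2 against 0.243 CPM in KO 1 and 0.573 CPM in KO 3, and 54.7 CPM in EV 3 against 0.892 CPM in EV 1 and 2.45 CPM in EV 2. The whole list of red blood cell and serum microRNAs, 5 rows of which 4 were tested and 0 called, summed to 16.9 to 107.9 CPM in KO and 22.4 to 94.9 CPM in EV. On it miR-486a-5p was also highest in KO 2 (15.1 CPM) and EV 3 (13.3 CPM), while miR-144-3p had 0 CPM in both. The neural miR-9-5p was highest there too, at 57.1 CPM in KO 2 and 51.4 CPM in EV 3. It had 19.1 CPM in KO 1, 15.2 CPM in KO 3, 11.3 CPM in EV 1 and 32.6 CPM in EV 2. What sets KO 2 and EV 3 apart was not tested. Without EV 3 and KO 2, miR-192-5p had a log2 change of 0.16 (SE 0.11) and miR-194-5p of 0.35 (SE 0.16, edgeR adjusted p = 0.127). The leukocyte list had at most 1.55 CPM in any library.

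**Figure D5:**
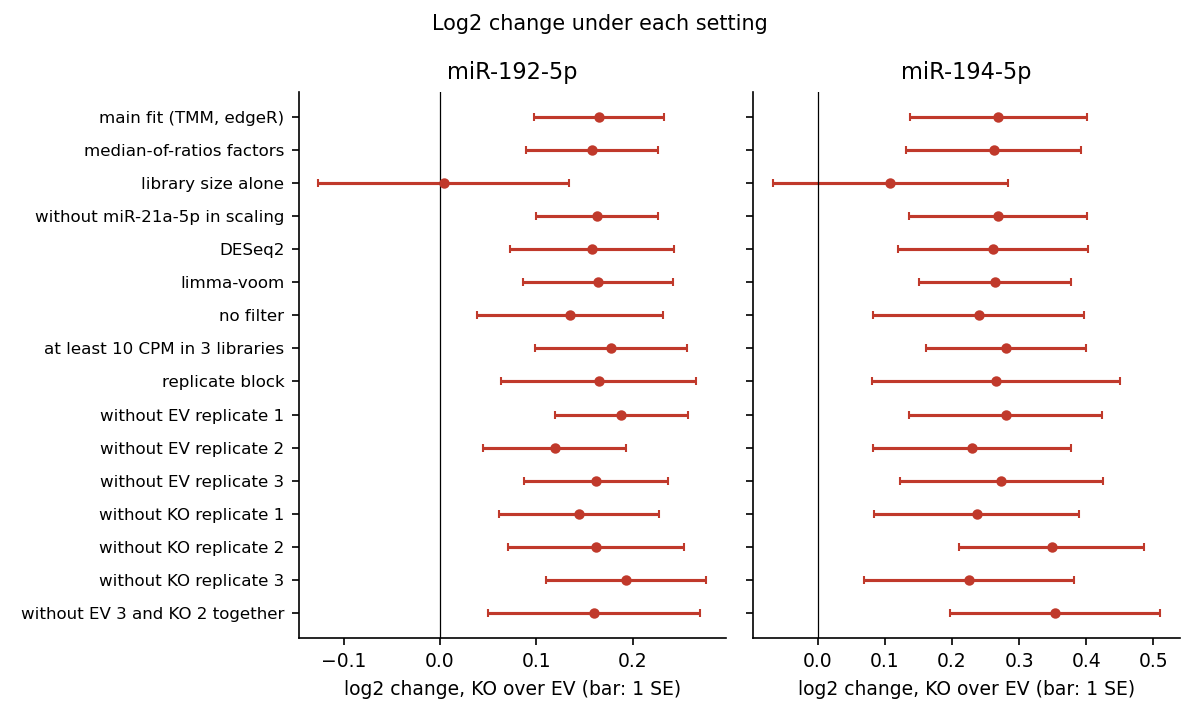
Log2 change of miR-192-5p (left) and miR-194-5p (right), KO over EV, with a bar of 1 SE, in the main fit and under each of 15 other settings listed down the page. Both stay at or above 0 throughout, and lie nearest to 0 with the library size alone.

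The authors' deposited table of KO against EV lists 78 microRNAs with adjusted p-values up to 0.0488, and 0 of the 7 cluster members are among them.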

How the data were processed

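Small-RNA libraries of 3 KO and 3 EV samples were grouped by their titles. Per the submitters' processing notes, Bowtie, DESeq 1.8.3 and the mm10 build were used; no miRBase release is named there. The deposited count table holds whole-number counts per mature microRNA. The deposited TPM values are counts scaled to 1000000 per library by the authors and stayed out of every test. The deposited table of the authors' own comparison gives mean normalized counts per group (a signal), log2 fold changes and p-values, and was used only to look up members.

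KO was compared with EV on all rows with edgeR 4.0.16 in R 4.3.3 (TMM, filterByExpr with minimum count 10 and minimum total 15, quasi-likelihood F test, two-sided, Benjamini-Hochberg at 0.05), with group as the only term. The filter left 460 of 1028 rows. The fit was tested on simulated data. CPM floors for a count of 0 use 3 counts, and ratios a pseudocount of 0.5 counts. Likeness used log2(CPM + 0.1). Replicates were compared before averaging: within each group, every pair differed by more than counting noise (lowest chi-square 9019 on 446 degrees of freedom, KO 1 and KO 3).

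The members, lists and rules were chosen with earlier results of these data known. The text names all members, called list members (or examples not called), the 5 microRNAs most alike and the 2 neighbours in abundance on each side. Some were named after their values were seen. They are miR-16-5p among the p53-linked microRNAs, miR-34a-3p, miR-216a-3p, miR-122-5p, miR-375-3p, miR-451a, miR-486a-5p and miR-144-3p. miR-605 of the p53-linked list had no row. Alternatives were other scalings, DESeq2 1.42.0, limma-voom (limma 3.58.1), other filters, a replicate block and libraries left out. Sequences are from RefSeq.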

Additional observations from a re-analysis of the deposited data

How the results depend on the processing

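Neither miR-192-5p nor miR-194-5p was called under any of the alternatives run, and both log2 changes stayed above 0. Over 15 alternatives, miR-192-5p ranged from 0.00 to 0.19 (adjusted p 0.143 to 0.988) and miR-194-5p from 0.11 to 0.35 (adjusted p 0.127 to 0.769). Over 14, miR-215-5p, given as a description, ranged from 0.61 to 1.49. It failed the filter of 10 CPM in 3 libraries, and DESeq2 gave it no adjusted p. The ratio of miR-194-5p to miR-192-5p differed by 0.03 to 0.19 with 1 library left out. The 35 calls over all microRNAs became 5 with the library size alone, 56 without the filter, 88 without EV 3 and KO 2, and 15 to 59 with 1 library left out. The p53-linked calls numbered 0 with the library size alone and 2 to 6 with 1 library left out, and the TGF-beta-linked calls 2 with the library size alone, 9 without EV 3 and KO 2, and 3 to 6 with 1 library left out. The cause was not tested. Same-numbered KO and EV libraries correlated in their deviations from the group means at 0.30, -0.04 and -0.22. The highest correlation was between KO 2 and EV 3, at 0.43. With 3 libraries per group such correlations cannot settle whether the numbers pair the samples. With a replicate block 34 microRNAs were called, with log2 changes of 0.16, 0.27 and 1.02 for miR-192-5p, miR-194-5p and miR-215-5p, and a ratio difference of 0.10 (exact sign-flip p = 0.5, smallest possible 0.25). Counts of 5 to 23 reads limit miR-215-5p and miR-194-2-3p.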
